A study of Homo sapiens with 6 samples.

Results

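The BCL2 family decides whether a cell commits to apoptosis through its mitochondria, and 10 of its genes were followed here in MDA-MB-231 cells, an established human line of basal-like breast cancer. The members were taken by name from the 65198 gene rows of the FPKM table (fragments per length of transcript and per fragments mapped), and all 10 were found in it by Ensembl identifier. They are the anti-apoptotic genes BCL2, BCL2L1, MCL1 and BCL2A1, the effectors BAX and BAK1, and the BH3-only genes BID, BBC3, PMAIP1 and BCL2L11. Poly(A)-selected RNA was sequenced from 3 cultures carrying a tetracycline-inducible short hairpin of scrambled sequence (shCtrl) and from 3 whose inducible hairpin targets the long non-coding RNA HOTAIR (shHOTAIR). All 6 cultures, controls included, received doxycycline at 1 µg/ml for 96 h, and the 3 libraries of a group are independent repeats of 1 derivative. The comparison asked how the transcriptome differed when HOTAIR was targeted, and its p-values measure the spread between such repeats, which share a derivative.

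Anti-apoptotic members of the family hold the effectors BAX and BAK1 in check on the outer mitochondrial membrane. BH3-only proteins sense stress and either occupy the anti-apoptotic members or activate the effectors directly. Once active, BAX and BAK1 form pores, cytochrome c leaves the mitochondria and caspases are switched on. Breast cancer cells of the basal type are known for their reliance on MCL1 and BCL2L1 (BCL-XL), and much of the control of these proteins lies in their turnover, which RNA levels do not show.

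In shHOTAIR, 4 of the 10 members fell and 1 rose, a count of 5 that was 2 to 3 with any 1 library left out and 1 when each gene was centred on its chromosomal neighbours. The BH3-only gene PMAIP1 (NOXA) fell to 0.601 times and BCL2 to 0.629 times its shCtrl level, while BAK1 and BID fell to 0.773 and 0.768 times. BCL2L1 rose to 1.19 times. In bulk RNA, fewer cells expressing a gene and less RNA per cell cannot be told apart. The calls come from limma on log2(FPKM + 1) over the 15934 genes whose mean reached 1 FPKM, at a Benjamini-Hochberg adjusted p of 0.05. Of all genes tested 23.8% passed, 12.4% lower and 11.5% higher in shHOTAIR. That count of 3797 was 2470 to 3159 with any 1 library left out, and 14.0% of genes passed after centring on neighbours. The median log2 change of the members was -0.36, against -0.03 over all genes tested, and 7 of the 10 had groups that did not overlap, as did 43.0% of all genes tested. BBC3 reached a mean of 1 FPKM only through its shCtrl libraries and would not have entered the test on its shHOTAIR level. Its p and its place in this median and count therefore support nothing.

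HOTAIR itself (ENSG00000228630) could not serve as a check of the labels. It was listed at 0, 0.0128 and 0.0132 FPKM in shCtrl 1, 2 and 3 and at 0, 0 and 0.0113 FPKM in shHOTAIR 1, 2 and 3 (exact two-sided permutation test p = 0.40, with 0.10 the lowest value possible for 3 libraries against 3). The number of fragments per library is not given, and the summed FPKM was 2224150 to 2569505 in shCtrl and 1620978 to 1820768 in shHOTAIR. Of the genes that mark this line, VIM (361 to 977 FPKM), CD44 (430 to 515 FPKM) and CAV1 (114 to 230 FPKM) were high in all 6 libraries, and CDH1, ESR1 and PGR stayed at or below 0.114 FPKM. Between the groups VIM fell to 0.414 times (limma adjusted p = 0.000616) and CAV1 rose to 1.87 times (0.000725). ERBB2, the gene of the HER2 receptor, was at 17.3 to 25.5 FPKM. The summed level of 5 leukocyte markers was 0.856 to 2.02 FPKM in shCtrl and 0.406 to 0.829 FPKM in shHOTAIR, with no marker at 0 in every library and LYZ the highest, at up to 1.29 FPKM. For 6 fibroblast markers the sums were 2.62 to 3.37 and 4.44 to 5.65 FPKM, of which COL1A1 held up to 3.82 FPKM, and for 5 endothelial markers 1.59 to 1.97 and 2.23 to 3.00 FPKM.

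The start regions of 3 members that passed the test are shown because PMAIP1 had the smallest p, BAK1 is the effector that fell and BCL2L1 is the member that rose. Each sequence is 200 bases on GRCh38.p14 from RefSeq, from 250 to 51 bases before the annotated start, and lies outside the annotated gene. Capitals mark matches, on either strand and allowed to overlap, to the ATF/CREB core TGACGT, the GC box GGGCGG, the CCAAT box CCAAT, the TATA box TATAAA and the E-box CACGTG.
PMAIP1, chr18:59899746-59899945, plus strand: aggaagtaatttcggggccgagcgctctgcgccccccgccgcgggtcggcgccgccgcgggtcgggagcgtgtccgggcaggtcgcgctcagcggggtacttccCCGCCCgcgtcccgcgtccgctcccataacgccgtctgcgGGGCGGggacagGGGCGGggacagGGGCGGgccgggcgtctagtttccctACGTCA
BAK1, chr6:33580327-33580526, minus strand: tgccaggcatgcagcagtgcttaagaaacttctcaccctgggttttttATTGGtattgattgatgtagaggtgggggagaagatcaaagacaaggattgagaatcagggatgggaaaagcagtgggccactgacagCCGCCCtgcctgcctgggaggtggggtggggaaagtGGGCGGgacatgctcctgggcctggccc
BCL2L1, chr20:31724014-31724213, minus strand: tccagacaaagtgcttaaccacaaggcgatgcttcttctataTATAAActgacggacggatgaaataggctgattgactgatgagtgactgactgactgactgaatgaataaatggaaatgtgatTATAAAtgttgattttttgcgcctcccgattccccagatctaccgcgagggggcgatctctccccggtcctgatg
The PMAIP1 window held 4 GC boxes and 1 ATF/CREB core, read on the other strand at its very end. Among 35116 windows of this length in the RefSeq table, 35.0% held a GC box and 4.86% an ATF/CREB core. In BAK1 there were 2 GC boxes and 1 CCAAT box, a motif found in 27.4% of all windows. The BCL2L1 window held 2 matches to TATAAA, letters present in 7.63% of windows. As the windows end 51 bases before the annotated start, the bases nearest to it were not searched. A second RefSeq start of BCL2L1, whose window lies inside the annotated gene and is not shown, held 0 matches to TATAAA and none to the other motifs of the 5. BCL2 and BID also passed, but their windows touch the annotated gene and are not shown. The BCL2 window held 0 matches to each of the 5 motifs. The 5 windows of BID held 0 to 3 GC boxes each, and 1 of them an E-box. These matches describe letters in a window and are not measured binding sites. The table held entries for 9 of the 10 members, all but MCL1.

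The members spanned a wide range of levels, which FPKM allows to be compared between genes because it is scaled by transcript length. Over the 6 libraries MCL1 had the highest mean, 266 FPKM (96.1st percentile of the protein-coding genes tested), followed by BAX at 129, BCL2L1 at 55.5, PMAIP1 at 41.1, BID at 20.5 and BAK1 at 17.4 FPKM. BCL2A1 (10.3 FPKM), BCL2L11 (7.27), BCL2 (3.47) and BBC3 (1.02) were low. In this order the ranges of neighbours overlapped for BCL2L1 and PMAIP1, for BID and BAK1 and for BCL2A1 and BCL2L11, and the other neighbours were apart in all libraries.

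**Figure D1:**
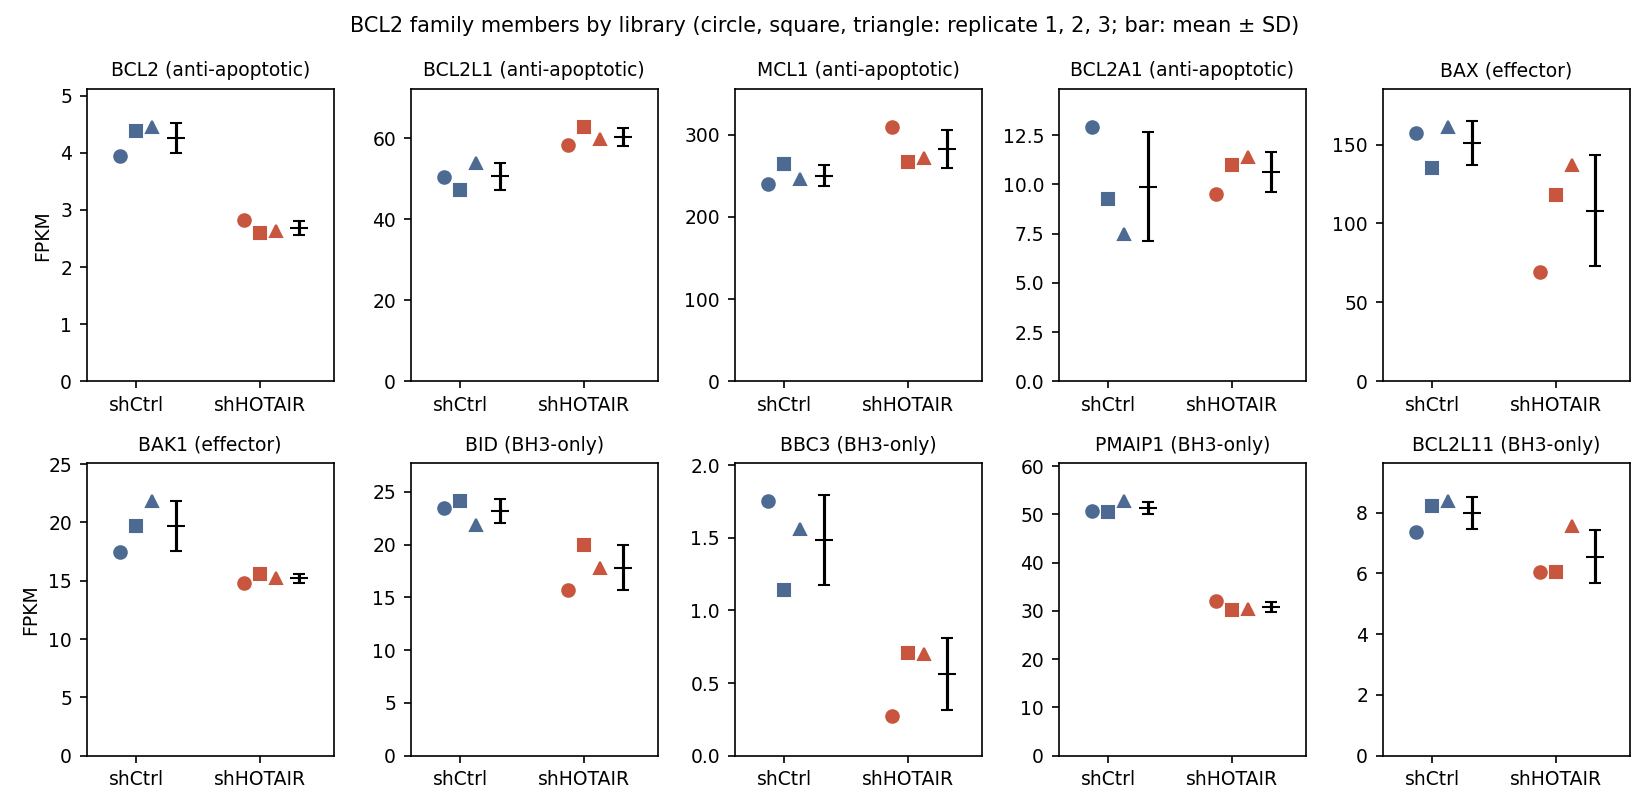
FPKM of the 10 members in each library, with a separate axis from 0 for each gene. Circles, squares and triangles are replicates 1, 2 and 3, and the bar beside them is the mean ± SD of 3 libraries. PMAIP1 and BCL2 form tight, separate groups, while BAX is spread widely in shHOTAIR, from 69.1 to 137 FPKM.

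Among the anti-apoptotic genes BCL2 fell and BCL2L1 rose. BCL2 (ENSG00000171791, chromosome 18, 63123346 to 63320128 on GRCh38), the founding guardian of the family, was at 3.95, 4.38 and 4.45 FPKM in shCtrl 1, 2 and 3 and at 2.82, 2.59 and 2.63 FPKM in shHOTAIR 1, 2 and 3. Every shHOTAIR library was below every shCtrl library, and the means were 4.26 ± 0.269 and 2.68 ± 0.12 FPKM (SD, n = 3 per group). The log2 change on the log2(FPKM + 1) scale was -0.51 (SE 0.0867, limma adjusted p = 0.0111). The added 1 shrinks changes of low genes, and with a pseudocount of 0.01 the log2 change was -0.67.

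BCL2L1 (ENSG00000171552, chromosome 20, 31664452 to 31723989), which encodes BCL-XL, was at 50.6, 47.3 and 54.0 FPKM in shCtrl, against 58.4, 62.8 and 59.8 FPKM in shHOTAIR. The groups were apart by a small margin, between 54.0 and 58.4 FPKM, and the log2 change was 0.25 (SE 0.0651, limma adjusted p = 0.0434). The call was lost when shCtrl 1 (adjusted p = 0.107), shCtrl 2 (0.0934), shHOTAIR 1 (0.0667), shHOTAIR 2 (0.115) or shHOTAIR 3 (0.0951) was left out. The antisense gene ABALON lies within the span of BCL2L1 on the other strand, shares 1424 exonic bases with it and was at a similar level, 56.3 to 62.6 FPKM in shCtrl and 59.5 to 77.9 FPKM in shHOTAIR (log2 change 0.21, limma adjusted p = 0.235). How strand was treated in counting is not known. Reads in the shared bases, out of 3314 exonic bases of BCL2L1, therefore cannot be told apart between BCL2L1 and ABALON. This limit also holds for the rank, shares and ratios of BCL2L1.

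MCL1 (ENSG00000143384, chromosome 1, 150574551 to 150579738), a short-lived guardian that PMAIP1 protein binds selectively, was at 240, 264 and 246 FPKM in shCtrl, against 309, 267 and 272 FPKM in shHOTAIR. The highest shCtrl library, at 264 FPKM, lay just below the lowest shHOTAIR library, at 267 FPKM, and the log2 change of 0.18 (95% confidence interval -0.01 to 0.37) did not pass (limma adjusted p = 0.157). BCL2A1 (ENSG00000140379, chromosome 15, 79960889 to 79971446), a guardian known as a target of NF-kappaB, was at 12.9, 9.27 and 7.46 FPKM in shCtrl, against 9.5, 11 and 11.4 FPKM in shHOTAIR. Its groups overlapped and the log2 change of 0.12 had an interval of -0.35 to 0.60. In BCL2A1 the repeats of shCtrl thus differed more from each other than the group means did.

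By FPKM, MCL1 made up most of the anti-apoptotic RNA in both derivatives. Its share of the summed FPKM of the 4 genes was 78.0%, 81.2% and 78.9% in shCtrl 1, 2 and 3 and 81.4%, 77.7% and 78.7% in shHOTAIR 1, 2 and 3. BCL2L1 held 14.6% to 17.3% and 15.4% to 18.3%, and BCL2A1 2.39% to 4.21% and 2.50% to 3.29%. The share of BCL2 was 1.29% to 1.43% in shCtrl and 0.742% to 0.761% in shHOTAIR. BCL2L1 exceeded BCL2 by a factor of 10.8 to 12.8 in shCtrl and of 20.7 to 24.2 in shHOTAIR. These shares are within a library, so no scaling between libraries enters them, and they are given as a description without a test.

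Of the effectors, BAK1 fell and BAX did not pass. BAK1 (ENSG00000030110, chromosome 6, 33572547 to 33580293), which sits on the outer mitochondrial membrane, was at 17.5, 19.7 and 21.8 FPKM in shCtrl, against 14.8, 15.6 and 15.2 FPKM in shHOTAIR. The shHOTAIR libraries lay close together and below all shCtrl libraries, with a log2 change of -0.35 (SE 0.0860, limma adjusted p = 0.0371). The call was lost without shCtrl 2 (adjusted p = 0.109), shCtrl 3 (0.0843), shHOTAIR 1 (0.10), shHOTAIR 2 (0.0964) or shHOTAIR 3 (0.101), and when libraries were scaled to equal summed FPKM of protein-coding genes (0.0822).

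BAX (ENSG00000087088, chromosome 19, 48954815 to 48961798), the effector that moves from the cytosol to mitochondria, was at 157, 135 and 161 FPKM in shCtrl, against 69.1, 118 and 137 FPKM in shHOTAIR. The groups overlapped, and shHOTAIR 1 stood far below the other shHOTAIR libraries. The log2 change was -0.53 (95% confidence interval -1.18 to 0.11, limma adjusted p = 0.199), and -0.24 without shHOTAIR 1 (adjusted p = 0.215). On the log2 scale BAX was 0.87 lower in shHOTAIR 1 than in the mean of the other shHOTAIR libraries. GC-rich genes were lower in that library: in the fifth of protein-coding genes with the highest GC content of the longest transcript (57.5% to 73.9%), the median of this difference was -0.13, and in the fifth with the lowest GC content it was 0.09. The longest BAX transcript has 58.9% GC. Of the other members in the fifth with the highest GC content, BAK1 (58.8%) was at -0.05 and BBC3 (69.7%) at -0.42. The part of GC content in the BAX value was not tested.

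The BH3-only genes all had lower means in shHOTAIR, and 2 of the 4 fell. PMAIP1 (ENSG00000141682, chromosome 18, 59899948 to 59904306), which encodes NOXA, a stress-induced antagonist of MCL1, had the smallest p of the members. Its FPKM was 50.7, 50.5 and 52.7 in shCtrl 1, 2 and 3 and 32.1, 30.1 and 30.4 in shHOTAIR 1, 2 and 3. The groups were far apart compared with their spread (51.3 ± 1.20 and 30.9 ± 1.05 FPKM, SD, n = 3 per group), with a log2 change of -0.72 (SE 0.0488, limma adjusted p = 0.000971).

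BID (ENSG00000015475, chromosome 22, 17734138 to 17774770), which links death receptors to mitochondria once caspase-8 cleaves it, was at 23.5, 24.1 and 21.9 FPKM in shCtrl, against 15.7, 20 and 17.8 FPKM in shHOTAIR. All shHOTAIR libraries were below all shCtrl libraries, and the log2 change was -0.37 (SE 0.0959, limma adjusted p = 0.0432). The call was lost without shCtrl 1 (adjusted p = 0.126), shCtrl 2 (0.129), shCtrl 3 (0.0889), shHOTAIR 1 (0.0738) or shHOTAIR 3 (0.111), with scaling by the median of ratios (0.0526) and with scaling to equal summed FPKM of protein-coding genes (0.0895). BCL2L13, a more distant family gene next to BID on chromosome 22, fell from 30.1 ± 3.29 FPKM to 23.1 ± 1.49 (log2 change -0.37, limma adjusted p = 0.0456). Its call was likewise lost without any single library but shCtrl 1 (adjusted p up to 0.140).

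BBC3 (ENSG00000105327, chromosome 19, 47220822 to 47232766), which encodes PUMA, a protein that binds all guardians, was the lowest of the members. It was at 1.75, 1.14 and 1.56 FPKM in shCtrl, against 0.273, 0.708 and 0.70 FPKM in shHOTAIR. The groups were apart, with shHOTAIR 1 lowest, yet the log2 change of -0.67 (95% confidence interval -1.20 to -0.15) did not pass (limma adjusted p = 0.0717). It passed with quantile normalization (adjusted p = 0.0449) and with limma without an intensity trend (0.0368). With a pseudocount of 0.01 the log2 change was -1.49 (adjusted p = 0.0622). As BBC3 entered the test only through shCtrl, none of these p-values supports a fall. BBC3 has the most GC-rich longest transcript of the members, 69.7%, and the GC trend of shHOTAIR 1 given for BAX applies beside its value as well, its part again not tested.

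BCL2L11 (ENSG00000153094, chromosome 2, 111119378 to 111168447), which encodes BIM, an activator of BAX and BAK1, was at 7.37, 8.21 and 8.37 FPKM in shCtrl, against 6.05, 6.06 and 7.55 FPKM in shHOTAIR. The groups overlapped through shCtrl 1 and shHOTAIR 3, and the log2 change of -0.25 (95% confidence interval -0.51 to 0.00) did not pass (limma adjusted p = 0.137). The non-coding gene MIR4435-2HG overlaps it on the other strand, shares 727 exonic bases with it and rose from 50.7, 50.9 and 51.5 FPKM to 73.6, 70.9 and 74.1 (log2 change 0.50, limma adjusted p = 0.00158). Reads of this far more abundant gene may be counted in BCL2L11 where strand is not used.

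PMAIP1 made up most of the BH3-only RNA in both derivatives, 60.1% to 62.3% of the summed FPKM of the 4 genes in shCtrl and 53% to 59.3% in shHOTAIR. The sum itself was 83.4, 84.0 and 84.6 FPKM in shCtrl and 54.1, 56.9 and 56.4 FPKM in shHOTAIR. The sum of the anti-apoptotic genes was 307, 325 and 312 FPKM and 380, 343 and 346 FPKM. MCL1 stood at 4.72, 5.21 and 4.66 times the level of PMAIP1 in shCtrl 1, 2 and 3 and at 9.65, 8.86 and 8.97 times in shHOTAIR 1, 2 and 3. For BCL2L1 over BAK1 the ratio was 2.40 to 2.89 in shCtrl and 3.94 to 4.03 in shHOTAIR. Neither ratio overlapped between the groups. This had to follow, as MCL1 and BCL2L1 were higher and PMAIP1 and BAK1 lower in every shHOTAIR library than in any shCtrl library. The separation of the ratios therefore adds nothing to that of the single genes. The ratio of BAX over BAK1 overlapped between the groups. As these are RNA ratios chosen with earlier results known, no test is given.

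**Figure D2:**
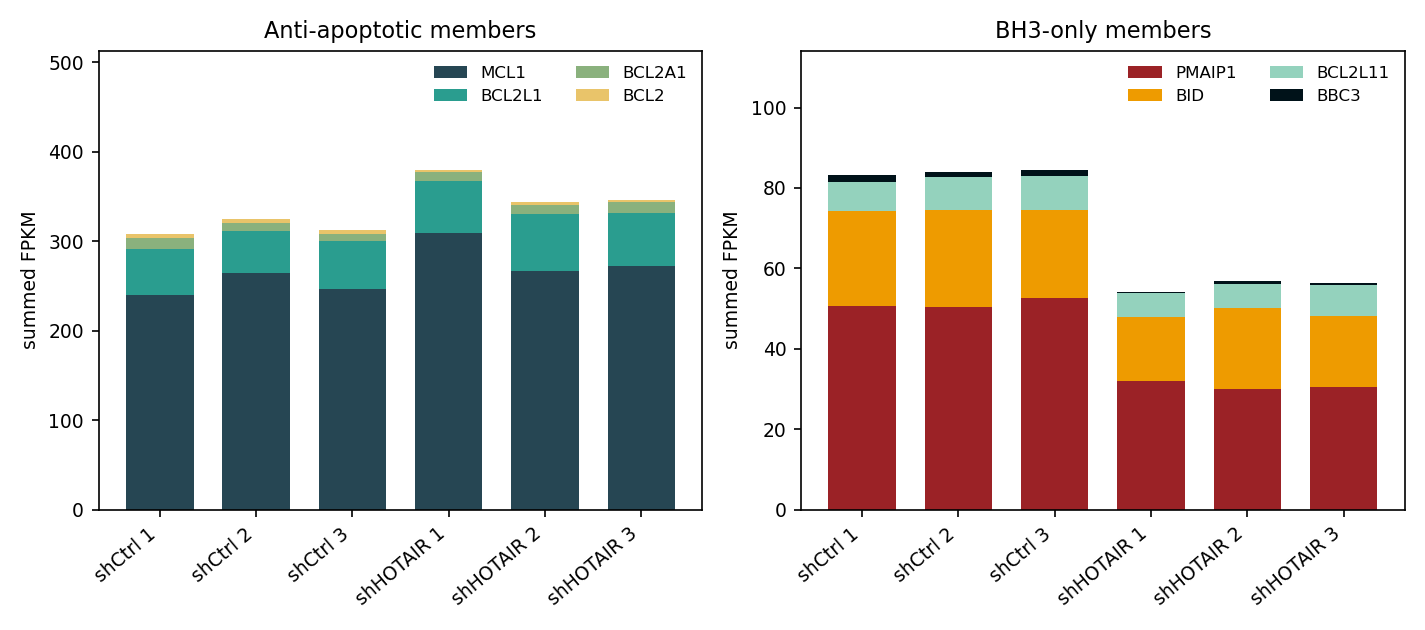
Stacked bars of FPKM in each library for the anti-apoptotic members (left, 307 to 380 FPKM in all) and the BH3-only members (right, 54.1 to 84.6 FPKM in all), on separate axes from 0. MCL1 and PMAIP1 are the largest parts of the bars, and the BH3-only bars of shHOTAIR are all lower than those of shCtrl.

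PMAIP1 and BCL2 lie 3.32 Mb apart on the long arm of chromosome 18, in a stretch where 41 of the 50 genes nearest to either had a negative log2 change. Over all 15934 genes tested, 8518 had a negative log2 change, 12.4% fell and 11.5% rose. Among the 50 protein-coding genes tested nearest to PMAIP1, which span 20.8 Mb, 23 fell, 3 rose and the median log2 change was -0.48. Around BCL2 the counts were also 23 and 3, with a median of -0.42, and 43 of the 50 neighbours were the same genes. Of these neighbours 7 had a lower log2 change than PMAIP1 and 21 a lower one than BCL2. The sphingolipid enzyme gene KDSR, next to BCL2, fell from 32.4 to 21.6 FPKM, whereas the serpins SERPINB2 (log2 change 2.71) and SERPINB10 (2.75) of the same stretch rose. Over the whole of chromosome 18, 56 of 173 protein-coding genes tested fell and 10 rose.

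**Figure D3:**
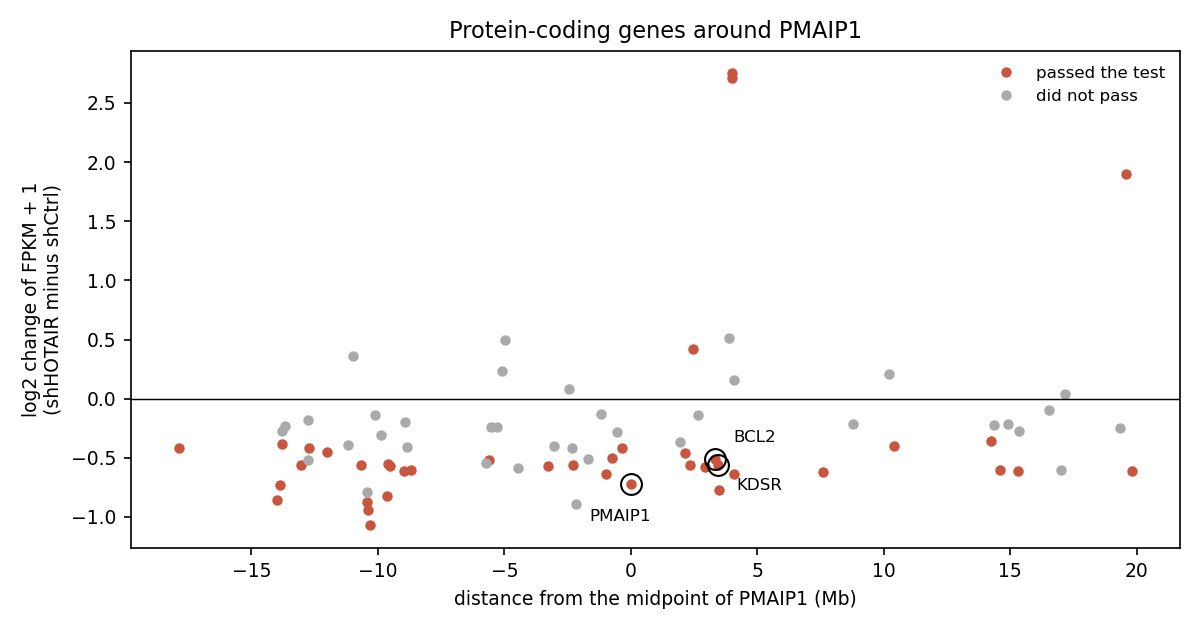
Log2 change of protein-coding genes within 20 Mb of PMAIP1, by distance between gene midpoints, with PMAIP1, BCL2 and KDSR circled. Of 77 genes 36 fell and 4 rose, while of all genes tested 12.4% fell and 11.5% rose. The pair of points above 2.5 are SERPINB2 and SERPINB10.

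Each gene was therefore also set against its own neighbourhood. When the median log2 level of the 50 nearest tested protein-coding genes was subtracted in each library (regional centring), 14.0% of genes passed, and PMAIP1 was the member that did, with a log2 change of -0.44 (limma adjusted p = 0.0119). BCL2 no longer passed (-0.26, adjusted p = 0.108), nor did BAK1 (-0.25, 0.187), BID (-0.28, 0.141) or BCL2L1 (0.22, 0.136). Subtracting instead the median deviation of the neighbours from their own means, chosen after the data were seen, let 15.6% of genes pass. PMAIP1 then had a log2 change of -0.28 (adjusted p = 0.0153) and BCL2L1 of 0.27 (0.0275), while BCL2 was at -0.11 (0.438), BAK1 at -0.24 (0.149) and BID at -0.32 (0.0608). The neighbours of BCL2L1, MCL1 and BID had median log2 changes of -0.02, 0.00 and -0.05, and those of BCL2A1 of 0.25.

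**Figure D4:**
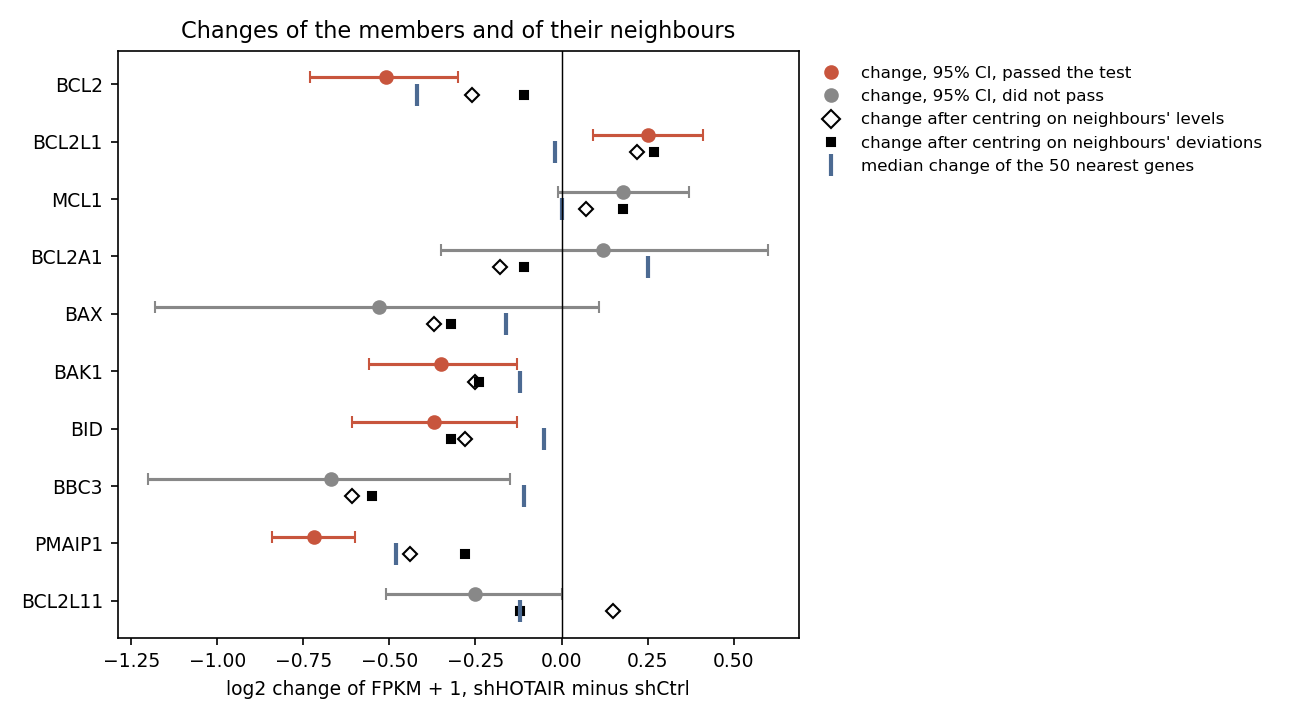
Log2 change of each member on the log2(FPKM + 1) scale with its 95% confidence interval (circles, red where the test was passed), the change after centring on the neighbours' median level (diamonds) or median deviation (squares), and the median log2 change of the 50 nearest protein-coding genes (blue bars). The BCL2 circle at -0.51 lies close to the blue bar of its neighbours at -0.42, and that of PMAIP1 at -0.72 lies below its bar at -0.48.

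The genes whose pattern over the 6 libraries was most like that of PMAIP1, out of 7907 protein-coding genes whose mean reached 10 FPKM, were RNF169 (Pearson r = 0.9988), KDSR (0.9985) and GPX3 (0.9982). RNF169 went from 62.5 to 34.4 FPKM and GPX3 from 38.5 to 21.3 FPKM. These correlations rest on 6 libraries in 2 groups, so any gene that fell with little spread within the groups scores highly, whatever the size of its fall.

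Transcription factors known to act on family genes were followed as well. In DDIT3 (CHOP), a stress factor, the level fell from 62.3 ± 7.69 FPKM to 32.0 ± 3.24 (log2 change -0.94, limma adjusted p = 0.00413), and the NF-kappaB subunit RELA from 81.7 ± 5.74 to 62.8 ± 1.68 FPKM (-0.37, adjusted p = 0.0126). ATF4, a factor of the same stress response as DDIT3, had means of 64.2 ± 3.18 and 64.5 ± 3.83 FPKM (adjusted p = 0.951). Of the 9 tested factors reported here 2 fell and 0 rose (22.2%, near the 23.8% of all genes tested), with 1 more, TP73, listed at 0 in every library. DDIT3 kept a log2 change of -0.90 with regional centring (adjusted p = 0.0108), while RELA did not pass (-0.23, 0.204).

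The rest of the family added few calls. BCL2L2, the guardian BCL-W, was at 11.7 ± 1.12 and 12.0 ± 1.93 FPKM (log2 change 0.03, limma adjusted p = 0.911), and BAD, a BH3-only gene controlled by phosphorylation, at 45.4 ± 10.7 and 47.0 ± 7.55 FPKM (0.06, 0.847). The effector-like BOK was at 6.81 ± 0.136 and 5.54 ± 0.470 FPKM, with groups apart and an adjusted p of 0.0602. BOK passed with regional centring (log2 change -0.56, adjusted p = 0.0148). BCL2L10, BIK, BMF and HRK stayed below a mean of 1 FPKM. Of 8 tested BCL2-like and BNIP genes 2 fell and 0 rose (25.0%, near the 23.8% of all genes tested): BCL2L13 and the hypoxia-induced mitophagy gene BNIP3, from 76.2 ± 1.89 FPKM to 48.5 ± 1.36 (log2 change -0.64, limma adjusted p = 0.00115). BNIP3 lies on chromosome 10, where 29 of its 50 neighbours fell, as did 12.4% of all genes tested. Centred on its region it was at -0.14 (adjusted p = 0.201).

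CASP8, the initiator caspase that cleaves BID, rose from 15.0 ± 2.86 FPKM to 27.2 ± 0.628 (log2 change 0.84, limma adjusted p = 0.00969). CASP2 rose as well (log2 change 0.31, adjusted p = 0.0263). Each of the 6 libraries, when left out, ended the CASP2 call (adjusted p 0.0565 to 0.0931). Of the 7 tested genes of the apoptosome and caspase list that are reported here, the other 5 did not pass, cytochrome c (CYCS) and APAF1 among them. The share that passed was 28.6%, beside 23.8% of all genes tested.

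Inhibitors of apoptosis went in both directions. BIRC3 (cIAP2), an NF-kappaB target, was at 40, 39.2 and 34.5 FPKM in shCtrl, against 13, 12.1 and 12.4 FPKM in shHOTAIR, a fall to 0.330 times (log2 change -1.53, SE 0.0718, limma adjusted p = 0.000406). Its neighbour BIRC2 (cIAP1) fell from 147 ± 1.05 to 117 ± 6.93 FPKM (-0.34, adjusted p = 0.0112), a call lost with regional centring (0.208). The caspase inhibitor XIAP rose from 18.3 ± 3.17 to 29.3 ± 3.63 FPKM (0.66, adjusted p = 0.0281). On its part of the X chromosome 43 of 50 neighbours rose as well, beside 11.5% of all genes tested. With regional centring XIAP was at -0.10 (adjusted p = 0.725), and leaving out shCtrl 2, shCtrl 3, shHOTAIR 1 or shHOTAIR 3 ended its call (adjusted p up to 0.0993). The mitochondrial protease HTRA2, which opposes these inhibitors, fell (log2 change -0.45, adjusted p = 0.0130). Of 7 genes tested in this list 2 rose and 3 fell (71.4%, beside 23.8% of all genes tested). The other rise was that of DIABLO (log2 change 0.24, adjusted p = 0.0432). DIABLO, which also opposes them, lost its call without any library but shHOTAIR 1 (adjusted p up to 0.104).

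Death receptor genes, which feed into BID, also split. TNFRSF1A, the main receptor for TNF, rose from 62.5 ± 9.69 FPKM to 125 ± 6.69 (log2 change 1.00, limma adjusted p = 0.00362), and no neighbour had a higher log2 change. FAS went from 2.74 ± 0.262 to 0.883 ± 0.191 FPKM (-0.99, adjusted p = 0.00696), and it reached a mean of 1 FPKM only through shCtrl, so its p and its place in the count support nothing. It lies in a stretch of chromosome 10 where 30 of 50 neighbours fell, beside 12.4% of all genes tested. FAS did not pass with regional centring (-0.46, 0.175). The decoy receptor TNFRSF10D rose (0.40, adjusted p = 0.00262) and the TRAIL receptor TNFRSF10A fell (-0.43, 0.0431), the latter call being lost without any 1 library (adjusted p 0.0507 to 0.128). TNFRSF10D did not pass with regional centring (0.26, 0.0793) and passed with centring on deviations (0.44, 0.00357). Of 10 genes tested 2 rose and 2 fell, FAS among the latter (40%, beside 23.8% of all genes tested).

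On the outer mitochondrial membrane VDAC2, the channel that anchors BAK1, fell from 134 ± 2.81 FPKM to 83.8 ± 4.55 (log2 change -0.67, limma adjusted p = 0.00151). It lies in another lower stretch of chromosome 10, and it was at -0.30 with regional centring (adjusted p = 0.0293) and at -0.21 with centring on deviations, where it did not pass (0.0613). The fusion genes MFN1 and MFN2 rose by a log2 change of 0.35 each (adjusted p = 0.0276 and 0.0442). For MFN1, leaving out shCtrl 1, shCtrl 2, shHOTAIR 1 or shHOTAIR 2 ended the call (largest adjusted p 0.0875), and for MFN2 leaving out any library but shHOTAIR 1 (up to 0.131). Neither passed when centred on its region (0.591 and 0.0941). Of 8 genes in that list 2 rose and 1 fell (37.5%, beside 23.8% of all genes tested). Among 6 tested genes for the turnover of MCL1 or BIM protein 2 fell (33.3%, beside 23.8% of all genes tested). They were MARCH5, from 162 ± 3.65 to 97.1 ± 4.48 FPKM (-0.74, adjusted p = 0.00110), and BTRC (-0.44, 0.0296). Both lie on chromosome 10 and neither passed with regional centring (-0.18, 0.251 and 0.10, 0.614). With centring on deviations MARCH5 passed (-0.33, 0.0116) and BTRC did not (0.14, 0.403). The BTRC call ended on leaving out shCtrl 1, shCtrl 3, shHOTAIR 1 or shHOTAIR 2 (up to 0.0996).

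**Figure D5:**
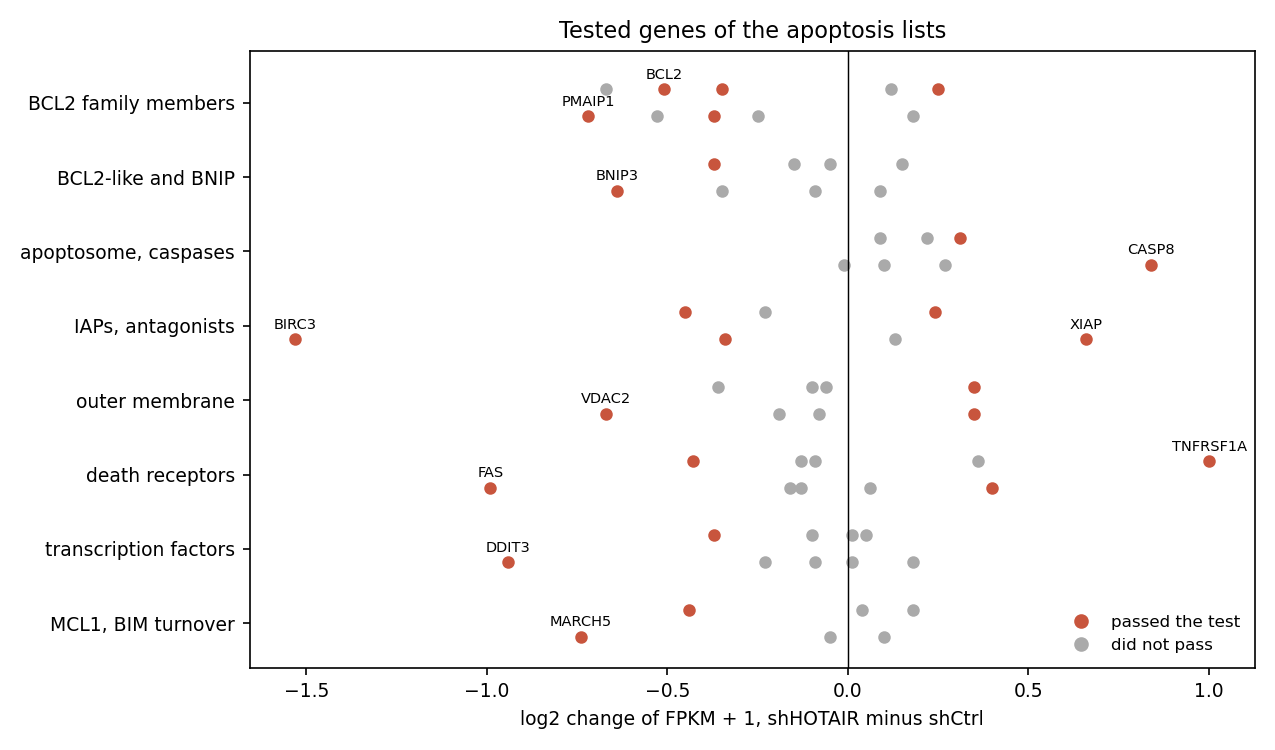
Log2 change on the log2(FPKM + 1) scale of the members and of the tested genes reported here from 7 wider lists, 1 row per list, in red where the test was passed. BIRC3 at -1.53, TNFRSF1A at 1.00 and CASP8 at 0.84 are among the genes outside the range of the BCL2 family members, -0.72 to 0.25. Others include FAS at -0.99, DDIT3 at -0.94, MARCH5 at -0.74 and XIAP at 0.66.

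Over the wider lists, 20 of the 58 tested genes reported here passed, 8 higher and 12 lower, which is 34.5% beside the 23.8% of all genes tested, with FAS in the count. By list the share was 28.6% for the reported apoptosome and caspase genes, 71.4% for the inhibitors of apoptosis and their antagonists, 37.5% for the outer membrane, 40% for the death receptors and 33.3% for turnover, over 6 to 10 genes each. The median log2 change of the 58 genes was -0.06. With regional centring 11 of the 58 passed (19.0%, beside 14.0% of all genes), and with centring on deviations 15 (25.9%, beside 15.6%).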

How the data were processed

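Expression was measured by poly(A) RNA sequencing in 3 shCtrl and 3 shHOTAIR libraries, grouped by their labels. The authors deposited FPKM values per gene, made by a program, on an annotation and with a strand setting that no label or header records. TopHat2 2.0.13, DESeq and GRCh38 are named per the submitters' processing notes, without their roles. Of 65198 rows 56807 matched GENCODE 29, which gave symbols, positions and exons. Values are per gene, so splice forms of MCL1, BCL2L1 and BID are not separated.

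Values were analysed as log2(FPKM + 1). Genes whose mean reached 1 FPKM were fitted with limma 3.58.1 in R 4.3.3 (moderated test, intensity trend, no replicate block, two-sided), with Benjamini-Hochberg adjustment over all 15934 genes and a threshold of 0.05, a procedure checked on simulated data. Preparation and figures used Python 3.11.15. Errors are standard deviations of FPKM, and SE belongs to the log2 change. The members, lists, tests and alternatives were chosen with earlier results of these data known. Genes were named by rule: the members, tested genes of the nearer family, up to 4 genes with the smallest p per list, line markers, HOTAIR and the 3 genes most like PMAIP1. ATF4, APAF1, CYCS, DIABLO, TP73, SERPINB2, SERPINB10, ABALON, MIR4435-2HG, genes below the filter and the GC comparison were added after values were seen. The number of fragments is not known, so no counting intervals are given. Some genes of the wider and marker lists are not reported here, and the counts and sums over these lists leave them out.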

Additional observations from a re-analysis of the deposited data

How the results depend on the processing

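PMAIP1 passed in all 18 alternatives (log2 change -0.74 to -0.28, limma adjusted p 0.000681 to 0.0246). With each library left out in turn, the number of members that passed was 2 to 3 in place of 5 (0 to 1 higher, 2 to 3 lower), that of the wider lists 13 to 15 in place of 20 (3 to 6 higher, 9 to 10 lower), and that of all genes 2470 to 3159 in place of 3797 (1224 to 1605 lower, 1243 to 1554 higher). Without a filter on low values, 2 members passed (0 higher, 2 lower), 12 genes of the wider lists (3 higher) and 3212 of all genes. Scaling to equal summed FPKM of protein-coding genes left 3 members (2 lower) and 3696 of all genes. Limma without a trend left 4 members (0 higher) and 3626 of all genes. Regional centring left 1 member (0 higher, 1 lower), 11 of the wider lists (4 higher, 7 lower) and 2154 genes (1166 higher, 988 lower). Centring on deviations left 2 members (1 lower) and 2393 genes (1125 lower). The replicate block left 1 member (0 higher, 1 lower), 10 of the wider lists (4 higher, 6 lower) and 1740 genes (825 higher, 915 lower). Same-numbered libraries deviated with correlations of -0.022, 0.007 and -0.031, which shows no shared deviation. Whether they were handled in pairs is not stated and cannot be settled by these values. BCL2 lost its call in the block (adjusted p = 0.0698). The cause of these differences was not tested.

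The sign turned for genes that did not pass. BCL2A1 was at -0.18 with regional centring, -0.11 with centring on deviations and -0.04 to 0.32 with each library left out (negative without shCtrl 3), and BCL2L11 at 0.15 with regional centring. With each library left out, BCL2L2 lay between -0.07 (without shHOTAIR 2) and 0.14, BAD between -0.07 (without shCtrl 2) and 0.24, CD44 between -0.04 (without shHOTAIR 2) and 0.09, and ERBB2 between -0.23 and 0.01 (without shCtrl 1). With regional centring BNIP3L was at -0.02, CASP6 at -0.12, NFKB1 at -0.20 and FBXW7 at -0.31 (adjusted p = 0.0345). With centring on deviations CASP6 was at -0.13, CASP9 at -0.06, NFKB1 at -0.15, FBXW7 at -0.27 (adjusted p = 0.0461) and TPT1 at -0.17. Of genes that passed, XIAP and BTRC turned to -0.10 and 0.10 with regional centring and to -0.01 and 0.14 with centring on deviations.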
